A study of Homo sapiens with 18 samples.

Results

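The comparison described here asks whether the transcriptional response of U2OS-MycER cells to 4-hydroxytamoxifen (OHT) differed between 24 and 48 h. Its members are the 10 libraries of cells that received a control siRNA, out of 18 libraries in the series, and they were taken by group from the sample labels. For each gene, the OHT effect at 24 h (siCtrl OHT minus siCtrl cells) was subtracted from the OHT effect at 48 h, on log2(eRPKM + 0.5). eRPKM, exonic reads scaled to the exon length of a gene and to the depth of its library, is the unit of the deposited values, and 14993 of 23399 genes reached the mean of 1 eRPKM over the 18 libraries that the comparison requires. CCDC87 lay just inside this limit with a mean of 1.00 eRPKM and FGF18 just outside it with 0.9999 eRPKM.

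U2OS cells derive from a human osteosarcoma, and the U2OS-MycER cells used here carry a retroviral fusion of the MYC protein with the ligand-binding part of the estrogen receptor. The labels give no clonal origin for these cells. Cells of all groups were reverse transfected with siRNA, and OHT at 400 nM or ethanol was added at the same moment, so that 24 h and 48 h are both the time since transfection and the time of OHT exposure. At 24 h the cells without and with OHT gave 2 libraries each, and at 48 h they gave 3 each. The remaining 8 libraries, 2 of each siRAD21 group, came from cells in which the cohesin subunit RAD21 was silenced, and they serve below as a second, separate set of libraries in which the same contrast can be read.

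MYC is a transcription factor that binds DNA as a dimer with MAX, preferably at the E-box sequence CACGTG. It is known for raising genes of ribosome production, nucleotide synthesis and metabolism, and for lowering genes that restrain proliferation or build the extracellular matrix. The fused MYC protein is held inactive in the cytoplasm until OHT binds the receptor part, so that target genes can respond within hours, whereas genes further downstream follow later. Untreated cells can also change during culture after transfection, for instance with density and nutrients, neither of which was measured here. The response at each time is therefore read against untreated cells of the same time.

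The 10 siCtrl libraries held 9647501 to 12678599 reads assigned to exons, as recovered from the steps between low eRPKM values. Of the osteoblast-lineage markers, SPARC (60.6 to 78.5 eRPKM), COL1A1 (14.5 to 59.1), SPP1 (4.11 to 14.8), RUNX2 (3.08 to 8.50) and ALPL (2.04 to 3.85) were present in all 10 libraries, whereas BGLAP (0.145 to 1.36) and SP7 (0.0666 to 0.487) were low and COL1A2, IBSP and TWIST1 were at or close to 0. Markers of blood and endothelial cells were low, with PTPRC at most 0.322 and PECAM1 at most 0.767 eRPKM, but the epithelial keratins KRT8 and KRT18 were high at 60.8 to 86.7 eRPKM, EPCAM (2.89 to 12.9) and CD68 (7.85 to 18.2) were present, CDH1 was at most 1.74 and KRT19 was at 0 in all libraries. MYC reads can also come from the MycER transgene. MYC measured 55.2 and 51.7 eRPKM without OHT and 41.0 and 41.2 with OHT at 24 h. At 48 h it measured 54.6, 49.9 and 52.3 without and 49.4, 43.3 and 42.0 with OHT. MYC was thus lower with OHT at both times without overlap between libraries, and the difference between the times was 0.15 ± 0.089 (log2, SE; limma with Benjamini-Hochberg adjustment, adjusted p = 0.38).

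Few genes were called for a different response at the 2 times. A gene was called when its adjusted p was below 0.05 and its log2 value lay past 0.5 in either direction. The difference between the OHT effects was called for 266 of 14993 genes (1.77%), with 107 (0.714%) shifted upward and 159 (1.06%) shifted downward at 48 h. This split turned without a log2 threshold (332 higher and 293 lower) and at a mean of at least 5 eRPKM (91 and 89). At an unadjusted p below 0.05 there were 2852 genes. At each single time many more genes were called. OHT changed 1316 genes at 24 h (8.78%; 551 higher and 765 lower) and 2684 genes at 48 h (17.9%; 1166 higher and 1518 lower). The OHT effect was larger at 48 h than at 24 h for 226 of the 266 genes, and for 738 of 993 genes called at both times in 1 direction without a called difference. Both sets were chosen by these same effects, so the counts are no separate result. Over all genes tested the OHT effect also spread wider at 48 h (SD 0.45, log2) than at 24 h (SD 0.35).

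The number of calls depended on the libraries and on the shared estimate of the spread, which draws on the siRAD21 libraries too. Fitted on the 4 siCtrl groups alone, 96 genes were called, without siCtrl replicate 1 at 24 h 130 and without siCtrl OHT replicate 1 at 24 h 114. The difference had a median standard error of 0.12 (log2), against 0.090 for the OHT effect at 24 h and 0.073 at 48 h. Where no p below names another tool, it is adjusted by Benjamini-Hochberg over all genes tested with limma.

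The called genes fell into classes by their calls at the single times. Late genes were called at 48 h but not at 24 h, with a called difference in the direction of 48 h, and numbered 52 higher and 95 lower with OHT. A late gene can still have an OHT effect at 24 h that stays within 0.5. At 24 h TRAF1 had 0.46 and ADGRL3 -0.43 (limma adjusted p = 0.000193 and 0.00849), whereas KRT34 had -0.03 (adjusted p = 0.885). Growing genes were called at both times in 1 direction and further from 0 at 48 h, and numbered 25 higher and 37 lower. Early genes, called at 24 h only and with a called difference against that direction, numbered 6 higher and 12 lower. RGS16 and EDN2 shrank, SMOC1 and MIR4774 turned from higher to lower, and 35 genes had a called difference without a call at either time. Sustained genes, called at both times in 1 direction with no called difference, numbered 435 higher and 558 lower. A further 1717 genes were called at a single time (239 at 24 h, 1478 at 48 h) without a called difference, so that their timing was not resolved. Without siCtrl OHT replicate 1 at 24 h the late genes numbered 61, the growing 29 and the early 10, and without siCtrl replicate 1 at 24 h 66, 37 and 11. The plot of the OHT effect at 48 h against that at 24 h shows the classes on both sides of the diagonal.

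**Figure D1:**
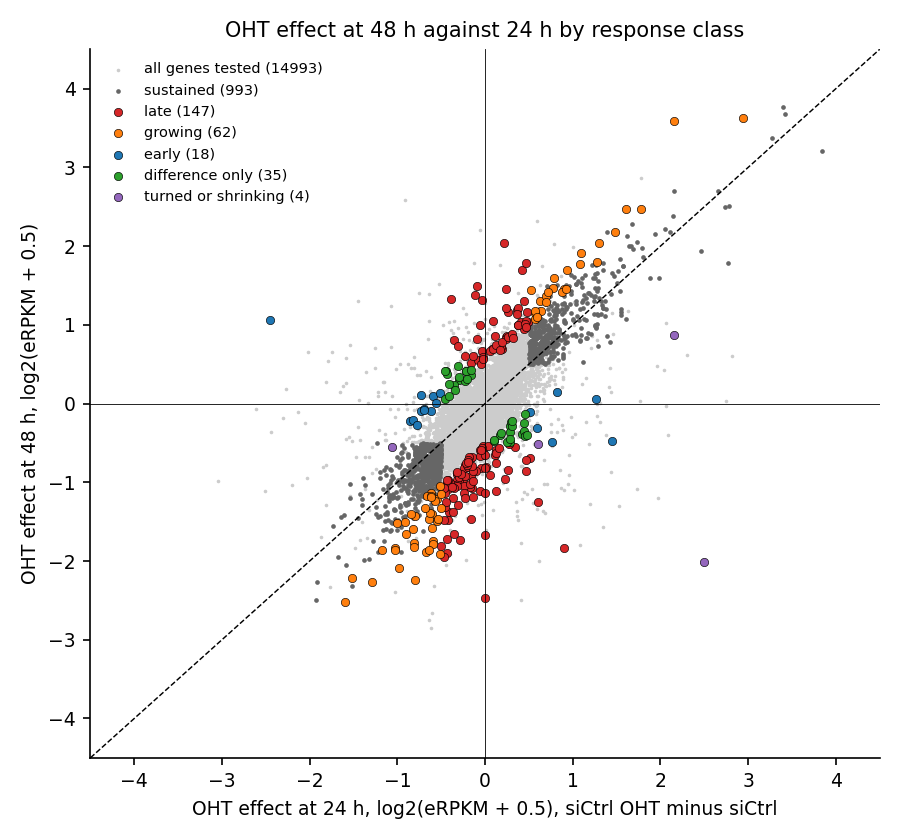
OHT effect at 24 h (x axis) and at 48 h (y axis) for 14993 genes, as differences of group means on log2(eRPKM + 0.5), siCtrl OHT minus siCtrl. Each point is a gene, the dashed line marks equal effects, and colours mark the classes. The 147 late genes were called on the y axis and not on the x axis, and the 993 sustained genes lie along the diagonal.

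Among the late genes that were higher with OHT, TRAF1, an adaptor of tumour necrosis factor receptors (GRCh37 chromosome 9, 123664671 to 123691451), measured 6.65 and 6.28 eRPKM without OHT and 9.02 and 9.18 with OHT at 24 h. By 48 h it measured 2.89, 3.01 and 2.96 without and 11.6, 12.1 and 10.5 with OHT. The 3 untreated libraries at 48 h were thus the lowest and the 3 treated ones the highest of the 10. The OHT effect was 0.46 ± 0.067 (log2, SE) at 24 h and 1.78 ± 0.055 at 48 h, and the difference of 1.32 ± 0.086 had an adjusted p of 7.62e-06.

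KRT34, a hair keratin (GRCh37 chromosome 17, 39533921 to 39538558), measured 11.5 and 10.5 eRPKM without OHT and 11.2 and 10.4 with OHT at 24 h. Its values at 48 h were 5.27, 6.88 and 7.04 without and 14.8, 18.03 and 17.0 with OHT. The groups overlapped at 24 h and were apart at 48 h, with a difference between the times of 1.35 ± 0.15 (adjusted p = 0.000762). Reads of KRT34 may be shared with near-identical hair keratin genes. SPX, which encodes the peptide hormone spexin, had means of 4.39 ± 0.032 and 5.25 ± 0.19 eRPKM (SD, n = 2) without and with OHT at 24 h. At 48 h the means were 2.06 ± 0.14 and 6.58 ± 1.37 (SD, n = 3), for a difference between the times of 1.22 ± 0.20 (log2, SE; limma adjusted p = 0.00507). CHRNA9, a subunit of nicotinic acetylcholine receptors, measured 6.005, 6.60 and 6.37 eRPKM with OHT at 48 h and 1.49 to 3.87 in the other 7 libraries. Its difference of 1.17 ± 0.24 (adjusted p = 0.0175) lost its call without siCtrl replicate 1 or siCtrl OHT replicate 2 at 24 h, with an adjusted p of up to 0.0922.

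Of the late genes that were lower with OHT, ADGRL3 had the largest difference by the rule for named genes. ADGRL3, the adhesion G protein-coupled receptor latrophilin-3 (GRCh37 chromosome 4, 62066044 to 62944053), measured 5.27 and 6.25 eRPKM without and 4.17 and 4.08 with OHT at 24 h. After 48 h it measured 15.3, 13.6 and 13.3 without and 3.34, 3.14 and 3.78 with OHT. Untreated cells at 48 h stood above all other libraries. The OHT effect went from -0.43 ± 0.11 to -1.90 ± 0.087, a difference of -1.47 ± 0.14 (adjusted p = 0.000264).

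GUCY1A2, a subunit of soluble guanylate cyclase (GRCh37 chromosome 11, 106544745 to 106889202), measured 5.16 and 6.64 eRPKM without and 4.66 and 4.33 with OHT at 24 h. At 48 h it measured 13.4, 12.8 and 12.3 without and 3.89, 3.42 and 3.84 with OHT, and the difference between the times was -1.31 ± 0.13 (adjusted p = 0.000500). Again the untreated libraries at 48 h held the high values. EPHA5, an ephrin receptor kinase, measured 6.98, 5.69 and 7.38 eRPKM without and 1.60, 1.46 and 1.99 with OHT at 48 h, and 2.92 to 4.55 in the 4 libraries at 24 h. Its difference was -1.28 ± 0.20 (adjusted p = 0.00330). EPHA5 shares 535 exon bases with its antisense gene EPHA5-AS1, which had a difference of -0.97, and reads from the strands cannot be told apart here. NKD1, which restrains Wnt signalling, differed in direction between the times. It measured 1.36 and 1.51 eRPKM without and 2.20 and 2.15 with OHT at 24 h, but 8.24, 5.83 and 5.11 without and 3.92, 3.37 and 3.58 with OHT at 48 h. The OHT effect was 0.47 ± 0.16 and then -0.72 ± 0.13, a difference of -1.18 ± 0.21 (adjusted p = 0.00772).

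SPP1, which encodes the bone matrix protein osteopontin, fell in the treated cells. It measured 14.8 and 14.5 eRPKM without and 10.7 and 10.3 with OHT at 24 h. By 48 h it measured 12.1, 13.8 and 14.003 without and 4.14, 4.11 and 5.14 with OHT. The untreated cells hardly moved between the times (-0.14 ± 0.086, adjusted p = 0.201), whereas the treated cells fell by 1.15 ± 0.086 on the log2 scale (adjusted p = 8.19e-07), and the difference was -1.01 ± 0.12 (adjusted p = 0.00117).

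Of the growing responses that were higher with OHT, G0S2, HK2 and GABRA5 began from a clear effect at 24 h. GUSBP5 was just past the threshold at that time (0.52 ± 0.18, adjusted p = 0.0452). G0S2, an inhibitor of triglyceride breakdown (GRCh37 chromosome 1, 209848757 to 209849735), measured 3.13 and 2.87 eRPKM without and 14.6 and 15.6 with OHT at 24 h. Its values at 48 h were 0.640, 0.934 and 1.25 without and 14.1, 18.6 and 17.5 with OHT. The treated means of 15.1 and 16.7 eRPKM differed by less than the spread at 48 h, the untreated mean fell from 2.999 to 0.942, and the OHT effect went from 2.16 ± 0.18 to 3.59 ± 0.15 (difference 1.43 ± 0.23, adjusted p = 0.00412). The lowest G0S2 value rests on 6 reads. HK2, the hexokinase that starts glycolysis (GRCh37 chromosome 2, 75061254 to 75120486), measured 10.2 and 10.0 eRPKM without and 22.5 and 21.4 with OHT at 24 h. After 48 h it measured 6.64, 7.44 and 7.58 without and 27.6, 25.3 and 25.0 with OHT, and the OHT effect went from 1.08 ± 0.068 to 1.78 ± 0.055 (difference 0.70 ± 0.087, adjusted p = 0.00128).

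GABRA5, a subunit of receptors for the transmitter GABA, had means of 10.8 ± 0.88 and 34.0 ± 1.01 eRPKM (SD, n = 2) without and with OHT at 24 h. At 48 h the means were 5.54 ± 0.69 and 32.9 ± 1.91 (SD, n = 3), for a difference between the times of 0.87 ± 0.14 (log2, SE; limma adjusted p = 0.00330). As with G0S2, the untreated level fell and the treated means differed by less than the spread at 48 h. NR0B1, an orphan nuclear receptor, and GUSBP5, a processed pseudogene whose reads may belong to related copies, were also called (0.83 ± 0.21, adjusted p = 0.0429, and 0.92 ± 0.23, adjusted p = 0.0393). NR0B1 lost its call in 8 and GUSBP5 in 6 of the 10 fits that left out 1 siCtrl library (adjusted p of up to 0.156 and 0.155), among them those without either library of either group at 24 h, and NR0B1 also in the fit with a block for each pair of same-numbered libraries. TRIB3, a pseudokinase of the stress response, went from an OHT effect of 0.59 ± 0.066 to 1.10 ± 0.054 (difference 0.52 ± 0.086, adjusted p = 0.00515), but its difference fell below 0.5, to as little as 0.45, in 4 of these fits, which left out replicate 1 of siCtrl or of siCtrl OHT at 24 h, replicate 1 of siCtrl at 48 h or replicate 3 of siCtrl OHT at 48 h.

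Growing responses that were lower with OHT were led by KRT14 and PLXDC2. PLXDC2, a transmembrane protein with a plexin domain (GRCh37 chromosome 10, 20105168 to 20578785), measured 9.69 and 10.4 eRPKM without and 7.02 and 6.72 with OHT at 24 h. At 48 h it measured 16.7, 18.02 and 16.7 without and 4.67, 4.20 and 3.79 with OHT. Untreated cells rose (0.74 ± 0.11, adjusted p = 0.000161) and treated cells fell (-0.65 ± 0.11, adjusted p = 0.000588), and the difference was -1.39 ± 0.16 (adjusted p = 0.000994).

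PHLDA1, a gene induced by growth factor signalling (GRCh37 chromosome 12, 76419227 to 76425556), measured 8.86 and 9.39 eRPKM without and 6.16 and 5.61 with OHT at 24 h. By 48 h it measured 32.0, 27.0 and 25.4 without and 9.03, 7.96 and 7.12 with OHT, for a difference of -1.15 ± 0.14 (adjusted p = 0.00128). The untreated libraries at 48 h again stood apart from the other 7. MXD4, a repressor that competes with MYC for MAX, measured 8.69 and 8.01 eRPKM without and 4.20 and 4.81 with OHT at 24 h. Its values at 48 h were 15.0, 14.03 and 14.6 without and 4.21, 4.47 and 4.81 with OHT, so that the treated means differed by less than the spread and the difference was -0.77 ± 0.098 (adjusted p = 0.00138).

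SOX6, a transcription factor of the SRY-related family, had means of 1.19 ± 0.13 and 0.590 ± 0.11 eRPKM (SD, n = 2) without and with OHT at 24 h. At 48 h they were 5.96 ± 0.59 and 1.29 ± 0.22 (SD, n = 3). The difference between the times was -1.22 ± 0.19 (log2, SE; limma adjusted p = 0.00320). SOSTDC1, a secreted antagonist of BMP and Wnt signals, had a difference of -1.21 ± 0.22 (adjusted p = 0.00844), which lost its call with a pseudocount of 0.1 and with voom on the recovered reads. KRT14, a keratin of basal epithelium with close relatives in the genome, had a difference of -1.44 ± 0.28 (adjusted p = 0.0126) and lost its call without siCtrl OHT replicate 1 at 24 h (adjusted p = 0.0841). COL11A1, a fibrillar collagen, had a difference of -0.80 ± 0.12 (adjusted p = 0.00298), and ITGB8, an integrin subunit, of -0.77 ± 0.14 (adjusted p = 0.00988). ITGB8 missed the threshold without siCtrl OHT replicate 1 at 24 h (adjusted p = 0.0556).

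Early responses were few. CXCL14, a chemokine (GRCh37 chromosome 5, 134906369 to 134914969), measured 7.04 and 7.32 eRPKM without and 18.2 and 17.7 with OHT at 24 h. After 48 h it measured 13.7, 13.4 and 16.9 without and 13.9, 14.9 and 17.3 with OHT. The groups were apart at 24 h and overlapped at 48 h, where the untreated cells had reached the treated level, and the OHT effect went from 1.26 ± 0.12 to 0.06 ± 0.097 (difference -1.20 ± 0.15, adjusted p = 0.00137). RGS16, which shortens G protein signalling, kept a higher level with OHT while the effect shrank. It measured 3.30 and 3.20 eRPKM without and 15.9 and 16.5 with OHT at 24 h, and 12.9, 12.9 and 9.68 without and 22.5, 23.2 and 19.8 with OHT at 48 h. Its difference was -1.28 ± 0.14 (adjusted p = 0.000762).

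Early genes that were lower with OHT numbered 12. CLDN4, a tight junction claudin, measured 41.6 and 38.2 eRPKM without and 20.8 and 22.7 with OHT at 24 h, and 28.7, 26.1 and 28.3 without and 23.6, 24.2 and 23.1 with OHT at 48 h. MISP, an actin-binding protein that positions the mitotic spindle, measured 31.5 and 29.2 without and 20.04 and 22.2 with OHT at 24 h, and 21.4, 23.8 and 24.6 without and 26.7, 25.8 and 24.1 with OHT at 48 h. In CLDN4 the untreated level fell toward the treated level. In MISP the untreated level fell (-0.38 ± 0.074) while the treated level rose (0.27 ± 0.074). The differences of CLDN4 and MISP were 0.64 ± 0.089 (adjusted p = 0.00221) and 0.65 ± 0.10 (adjusted p = 0.00433). At 48 h CLDN4 was still lower with OHT without overlap (-0.22 ± 0.056, adjusted p = 0.00416), below the threshold of 0.5, and MISP overlapped. EFR3B, a plasma membrane anchor of a lipid kinase, had a difference of 0.69 ± 0.13 (adjusted p = 0.00844). RAC2 had one of 0.84 ± 0.19 (adjusted p = 0.0221), which lost its call without replicate 1 of siCtrl or of siCtrl OHT at 24 h, without siCtrl OHT replicate 2 at 48 h (adjusted p of up to 0.142) and with the block of library pairs. EDN2, the vasoactive peptide endothelin-2, shrank from -1.06 ± 0.082 to -0.56 ± 0.067 (difference 0.50 ± 0.11, adjusted p = 0.0177). It lost its call in 5 of the 10 fits that left out a library, those without replicate 1 of any of the 4 groups or without siCtrl OHT replicate 3 at 48 h (adjusted p of up to 0.10).

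SMOC1, a calcium-binding matrix protein, was higher with OHT at 24 h and lower at 48 h, without overlap at either time. It measured 0.840 and 0.874 eRPKM without and 1.67 and 1.46 with OHT at 24 h. At 48 h it measured 12.7, 9.27 and 11.8 without and 8.90, 6.64 and 7.74 with OHT. The gene rose strongly in both arms between the times (3.10 ± 0.16 without and 1.99 ± 0.16 with OHT), and the difference was -1.11 ± 0.23 (adjusted p = 0.0148). It lost its call without replicate 1 of siCtrl or of siCtrl OHT at 24 h (adjusted p of up to 0.0878). MIR4774, the other gene that turned, is a short RNA with few reads and a standard error of 1.12 (log2).

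Sustained responses included large effects. PDE1B, a phosphodiesterase, measured 1.401 and 2.02 eRPKM without and 22.3 and 23.6 with OHT at 24 h. By 48 h it measured 1.36, 1.32 and 1.54 without and 22.9, 23.4 and 25.2 with OHT. The OHT effect was 3.42 ± 0.13 at 24 h and 3.67 ± 0.11 at 48 h, and the difference of 0.26 ± 0.17 was not called (adjusted p = 0.444). ADCYAP1R1, the receptor of the neuropeptide PACAP, had OHT effects of 3.40 ± 0.14 and 3.76 ± 0.11, and CR2, a complement receptor, of 3.28 ± 0.12 and 3.37 ± 0.095. FAM222A-AS1, an antisense RNA at 2 to 113 reads a library, had OHT effects of 3.84 ± 0.19 and 3.20 ± 0.15.

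On the lower side, IGFBP5, an insulin-like growth factor binding protein, measured 30.1 and 33.0 eRPKM without and 8.68 and 7.27 with OHT at 24 h, and 91.5, 75.6 and 78.7 without and 16.2, 12.1 and 14.4 with OHT at 48 h. It rose with time in both arms, and the OHT effect of -1.92 ± 0.13 at 24 h and -2.49 ± 0.10 at 48 h differed by -0.57 ± 0.16, short of the threshold (adjusted p = 0.0710). SLC2A12, a glucose transporter that shares 2852 exon bases with TBPL1 on the other strand, had OHT effects of -1.58 ± 0.075 and -2.05 ± 0.061, CNIH3, an auxiliary subunit of glutamate receptors, of -1.92 ± 0.13 and -2.26 ± 0.11, and MN1, a transcriptional coregulator, of -1.68 ± 0.26 and -1.96 ± 0.21. The difference of SLC2A12, -0.46 ± 0.096, had an adjusted p of 0.0167 but did not pass 0.5.

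The difference between the OHT effects equals the change from 24 to 48 h with OHT minus the change without OHT, so each gene can be read from its 2 arms, which come from the same 10 libraries. In untreated cells 1865 genes were called between the times (12.4%; 829 higher, 5.53%, and 1036 lower, 6.91%), and in treated cells 1576 (10.5%; 638 higher, 4.26%, and 938 lower, 6.26%). With libraries centred on their medians these splits turned, to 1139 higher and 658 lower without and 978 higher and 515 lower with OHT, and the median change of all genes without OHT went from -0.04 to 0.04. Of the 266 genes, 125 were called in the untreated arm alone, 51 in the treated arm alone, 40 in both and 50 in neither. The 40 genes called in both arms moved in 1 direction in 35 cases, SOX6 and NR0B1 among them, and apart in 5. The untreated arm moved further than the treated arm for 188 of the 266 genes. These genes were chosen by the difference of the same 2 arms, so this count is no separate result. Over all genes tested the change with time also spread wider without OHT (SD 0.39, log2) than with it (SD 0.36). With median centring 125 genes were called in the untreated arm alone, 51 in the treated arm alone and 45 in both, and the untreated arm moved further for 190.

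The split varied among the classes. In the 95 late lower genes the median change with time was 0.66 without and -0.14 with OHT, and in the 37 growing lower genes 1.12 and 0.18. Among the growing lower genes 16 were called in the untreated arm alone, 2 in the treated arm alone and 13 in both, 12 of these in 1 direction. The 52 late higher genes were divided evenly, with 21 called in the untreated arm alone, 21 in the treated arm alone and 4 in both, and medians of -0.46 without and 0.34 with OHT. In the 25 growing higher genes the untreated arm fell (median -0.74) and the treated arm hardly moved (median -0.03). Since RNA of whole cultures was measured, a lower level in fewer cells and a lower level in each cell cannot be told apart.

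The genes were also grouped into 35 lists of pathways and cell functions. Among 40 nucleolar genes of ribosome biogenesis, which process ribosomal RNA and assemble ribosomal subunits, 2 were called higher with OHT at 24 h (3.68% of all genes tested) and 20 at 48 h (7.78%), none lower at either time. The median OHT effect was 0.23 at 24 h and 0.51 at 48 h, against -0.01 at both times over all genes. The difference between the times was above 0 for 39 of 40 members (51.5% of all genes), with a median of 0.26 against 0.01, and was called for 3, MYBBP1A, NOP14 and RRP12. The list fell with time without OHT (median -0.23, below 0 for 33 of 40; 56.2% of all genes) and not with OHT (median 0.07). With median centring these medians were -0.14 and 0.18.

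MYBBP1A, a nucleolar protein (GRCh37 chromosome 17, 4442192 to 4458681), measured 25.2 and 23.6 eRPKM without and 30.8 and 32.9 with OHT at 24 h. Its values at 48 h were 12.4, 11.1 and 13.1 without and 26.7, 24.3 and 23.4 with OHT. Both arms fell with time, the untreated one further (-0.97 ± 0.068 against -0.36 ± 0.068), and the difference was 0.62 ± 0.096 (adjusted p = 0.00326). NOP14, a component of the machinery that makes the small ribosomal subunit (GRCh37 chromosome 4, 2939660 to 2965133), measured 16.3 and 16.5 without and 20.04 and 19.3 with OHT at 24 h, and 9.27, 10.5 and 11.5 without and 19.0, 19.7 and 18.9 with OHT at 48 h. Its treated means differed by less than the spread, and the difference was 0.60 ± 0.10 (adjusted p = 0.00608). NOP14 shares 737 exon bases with its antisense gene NOP14-AS1. RRP12, which acts in the export of ribosomal subunits, had OHT effects of 0.57 and 1.17 and a difference of 0.60 ± 0.10 (adjusted p = 0.00658). The nucleolar proteins NCL and FBL, which are textbook MYC targets, had differences of 0.06 ± 0.064 (adjusted p = 0.692) and 0.31 ± 0.084 (adjusted p = 0.0552).

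Other growth-related lists had small effects. The 23 genes of mitochondrial ribosomes and import had median OHT effects of 0.18 at 24 h and 0.32 at 48 h, with 0 and 6 members called higher (3.68% and 7.78% of all genes), and the 13 purine synthesis genes 0.15 and 0.33, with 0 and 3. Of the purine enzymes, PPAT, which commits precursors to purine synthesis, measured 41.5 and 42.1 eRPKM without and 50.98 and 51.8 with OHT at 24 h, and 38.9, 42.4 and 38.8 without and 55.8, 59.8 and 60.2 with OHT at 48 h. Its difference of 0.25 ± 0.062 had an adjusted p of 0.0386 but lay below 0.5. CAD, the enzyme that starts pyrimidine synthesis, had a difference of 0.26 ± 0.18 (adjusted p = 0.476), and ODC1, which starts polyamine synthesis, of 0.21 ± 0.086 (adjusted p = 0.197). The 19 host genes of small nucleolar RNAs had medians of -0.02 and 0.20, with 1 and 2 members called higher, near the shares of all genes. In none of these lists was a member called for the difference.

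Cell-cycle genes moved little. None of 42 genes of DNA replication licensing and forks, of 19 G1/S regulators or of 34 genes of G2/M and mitosis was called for the OHT effect at either time or for the difference. Of all genes tested, 8.78% were called at 24 h, 17.9% at 48 h and only 1.77% for the difference, where few calls would be found in lists of this size. The median OHT effects of the replication genes were 0.04 and 0.16, and 41 of 42 differences were above 0 (51.5% of all genes). MCM4, a subunit of the replicative helicase, had a difference of 0.07 ± 0.056 (adjusted p = 0.570), CCNE2, a G1/S cyclin that shares 1629 exon bases with INTS8, of -0.09 ± 0.13 (adjusted p = 0.764), and CCNB1, the mitotic cyclin, of 0.11 ± 0.083 (adjusted p = 0.535). Several inhibitors of cyclin-dependent kinases were lower with OHT. Of 6 tested, 3 were called lower at 24 h (5.1% of all genes) and 5 at 48 h (10.1%), with medians of -0.49 and -0.89. CDKN2C, which inhibits CDK4 and CDK6, measured 32.3 and 28.8 eRPKM without and 20.9 and 21.4 with OHT at 24 h, and 24.9, 27.4 and 28.2 without and 12.3, 11.6 and 14.2 with OHT at 48 h. It was the 1 member called for the difference (-0.54 ± 0.13, adjusted p = 0.0403) and lost the call in 8 of the 10 fits that left out a library, all but those without siCtrl replicate 1 or siCtrl OHT replicate 3 at 48 h (adjusted p of up to 0.141), and with the block of library pairs. CDKN2B had a difference of -0.39 ± 0.21 (adjusted p = 0.339). CDKN1A, which encodes p21, was the exception in direction, with an OHT effect of -0.04 ± 0.054 at 24 h and 0.14 ± 0.044 at 48 h and a difference of 0.18 ± 0.069 (adjusted p = 0.176).

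Some genes of the extracellular matrix were lower with OHT. Of 29 collagens and matrix glycoproteins, 5 were called lower at 24 h (5.1% of all genes) and 10 at 48 h (10.1%), none higher, and 4 were called for the difference, all downward (1.06% of all genes), with a median difference of -0.22. These were MGP, COL11A1, COL5A2, and FN1, which encodes fibronectin. FN1 had OHT effects of -0.45 and -1.13 (difference -0.68 ± 0.13, adjusted p = 0.0136), and COL5A2 of -0.43 and -1.08 (difference -0.65 ± 0.095, adjusted p = 0.00228). MGP, an inhibitor of calcification, was measured on 5 to 55 reads, and its difference of -1.31 ± 0.34 (adjusted p = 0.0475) lost its call in 8 of the 10 fits that left out a library, all but those without siCtrl replicate 3 or siCtrl OHT replicate 2 at 48 h, and with the block of library pairs. COL1A1 varied more between libraries than between the times. It measured 48.9 and 42.2 eRPKM without and 26.0 and 27.4 with OHT at 24 h, and 59.1, 28.1 and 34.1 without and 37.4, 14.5 and 15.2 with OHT at 48 h. Its replicates 1 at 48 h were the highest of both groups, and the difference of -0.15 ± 0.47 had an adjusted p of 0.901.

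Of 27 interferon-stimulated genes, 8 were called lower with OHT at 24 h (5.1% of all genes) and 7 at 48 h (10.1%), with medians of -0.29 and -0.36. ISG20, an exonuclease, was called higher at 48 h, and the difference had a median of 0.00 over the list. IFI44 grew, from -0.91 ± 0.099 to -1.504 ± 0.081 (difference -0.59 ± 0.13, adjusted p = 0.0206), and lost its call without replicate 1 of siCtrl or of siCtrl OHT at 24 h (adjusted p of up to 0.113). IFIT3 went the other way, from -0.46 ± 0.079 to 0.06 ± 0.065 (difference 0.52 ± 0.10, adjusted p = 0.0130), and its difference fell to 0.46 at the lowest in 4 fits that left out a library, replicate 2 of siCtrl or of siCtrl OHT at 24 h, or replicate 3 of either at 48 h. Among 25 genes of lysosomes and autophagy 2 were called lower at 24 h (5.1% of all genes) and 8 at 48 h (10.1%), and among 14 hypoxia-regulated genes 3 (3.68%) and 7 (7.78%) were called higher. No lysosomal gene was called for the difference. Of the hypoxia-regulated genes ADM, the vasodilator adrenomedullin, was called, with 0.60 ± 0.14 (adjusted p = 0.0269). It lost its call in 6 fits that left out a library, any of the 4 at 24 h, siCtrl replicate 1 or siCtrl OHT replicate 2 at 48 h (adjusted p of up to 0.110), and with the block of library pairs.

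Of 27 p53 target genes, GDF15, a secreted stress hormone, was called upward (0.90 ± 0.22, adjusted p = 0.0346) and TP53INP1, a p53-induced protein, downward (-0.56 ± 0.12, adjusted p = 0.0218). GDF15 measured 16.4, 15.98 and 12.1 eRPKM with OHT at 48 h and 4.80 to 7.62 in the other 7 libraries. It lost its call in 6 fits that left out a library, replicate 1 of any group, siCtrl replicate 3 or siCtrl OHT replicate 2 at 48 h (adjusted p of up to 0.187), and TP53INP1 in 3, without siCtrl replicate 1 or either siCtrl OHT library at 24 h (adjusted p of up to 0.0884). TNFAIP2, a target of NF-kB, was an early lower gene (0.51 ± 0.12, adjusted p = 0.0348). It lost its call in 8 of these fits, all but those without siCtrl replicate 2 at 24 h or siCtrl OHT replicate 3 at 48 h (adjusted p of up to 0.155), and with the block of library pairs. ATF3, a stress-induced transcription factor, was sustained, with OHT effects of 0.87 ± 0.22 and 1.14 ± 0.18. CTGF, a matricellular target of YAP, was lower at 24 h (-0.63 ± 0.051) and closer to 0 at 48 h (-0.25 ± 0.042), with a difference of 0.38 ± 0.066 (adjusted p = 0.00661), and CYR61, a related gene, had a difference of 0.26 ± 0.11 (adjusted p = 0.205). The panel of the text held 16 genes fixed for their roles, MYC, NCL, FBL, ODC1, CAD, PPAT, MCM4, CCNE2, CCNB1, CDKN1A, CDKN2B, ATF3, COL1A1, CTGF, CYR61 and IGFBP5, none of which was called for the difference.

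Promoters were searched for the MYC E-box CACGTG, whose reverse complement is the same word. RefSeq windows (GRCh38.p14) of 300 bases, from 250 before to 50 after a start, were matched by symbol to 11135 of the genes tested, with 16114 windows. The E-box was in 9.22% of all windows. It was in 6 of 46 windows of late higher genes (13.0%, Wilson 95% interval 6.12 to 25.7%) and 5 of 124 of late lower genes (4.03%, 1.73 to 9.09%). Growing higher genes had it in 3 of 22 windows (13.6%, 4.75 to 33.3%) and growing lower genes in 6 of 49 (12.2%, 5.73 to 24.2%). Among sustained genes it was in 10.9% of windows of higher genes (57 of 522, 8.52 to 13.9%) and 4.34% of lower genes (27 of 622, 3.0002 to 6.24%). The intervals cover counting error only, and windows of 1 gene can overlap. The intervals of the sustained and late lower genes lay below the share of all windows, and the intervals of the late and growing higher genes include the share of all windows.

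Words bound by E2F factors (TTCCCGC, or TTCGCGC, or TTGCCGC, or TTGGCGC, on both strands) were in 18.6% of all windows, 17.4% of those of late higher and 13.7% of those of late lower genes. CCAAT, on either strand, was in 34.4%, 19.6% and 37.1%. The windows of MYBBP1A, NOP14 and HK2 are shown because these were the named late or growing higher genes from the lists that held an E-box, and that of GUCY1A2 as a late lower gene with the same word. Capitals mark CACGTG. The MYBBP1A window lies at chr17:4555335-4555634 and that of NOP14 at chr4:2963357-2963656, both on the minus strand. That of HK2 lies at chr2:74834920-74835219 on the plus strand and is the second of 2 HK2 windows, of which the first had no E-box, and that of GUCY1A2 lies at chr11:107018427-107018726 on the minus strand.
MYBBP1A: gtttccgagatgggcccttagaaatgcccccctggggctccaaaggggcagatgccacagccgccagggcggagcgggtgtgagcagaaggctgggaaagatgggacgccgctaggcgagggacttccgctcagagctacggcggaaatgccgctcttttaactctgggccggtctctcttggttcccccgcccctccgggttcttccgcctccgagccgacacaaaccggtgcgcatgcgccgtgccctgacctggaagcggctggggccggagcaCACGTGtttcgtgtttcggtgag
NOP14: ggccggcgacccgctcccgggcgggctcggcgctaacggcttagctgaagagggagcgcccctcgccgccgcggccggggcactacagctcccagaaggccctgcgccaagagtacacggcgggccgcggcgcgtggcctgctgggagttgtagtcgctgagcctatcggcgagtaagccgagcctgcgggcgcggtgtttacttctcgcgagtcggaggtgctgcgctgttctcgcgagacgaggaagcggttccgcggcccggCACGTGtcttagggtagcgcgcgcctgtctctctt
HK2: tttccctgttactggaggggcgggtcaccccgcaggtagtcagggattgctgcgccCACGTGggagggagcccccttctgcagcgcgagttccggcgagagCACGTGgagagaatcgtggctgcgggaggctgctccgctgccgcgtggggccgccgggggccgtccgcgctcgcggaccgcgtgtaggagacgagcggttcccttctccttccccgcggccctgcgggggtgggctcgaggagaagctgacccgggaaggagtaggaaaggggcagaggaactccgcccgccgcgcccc
GUCY1A2: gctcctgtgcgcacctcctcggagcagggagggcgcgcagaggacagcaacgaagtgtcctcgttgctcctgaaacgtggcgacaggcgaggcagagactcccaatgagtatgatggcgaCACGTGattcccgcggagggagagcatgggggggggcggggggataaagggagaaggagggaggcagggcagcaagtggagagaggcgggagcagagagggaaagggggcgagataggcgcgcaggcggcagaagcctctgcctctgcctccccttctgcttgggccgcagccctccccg
In MYBBP1A and NOP14 the word began 27 and 15 bases after the start, and in HK2 it stood at 2 places, 194 and 149 bases before the start. In GUCY1A2 it began 130 bases before the start. No binding was measured here, and the presence of the word is a description of these windows.

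The same contrast was computed in siRAD21 cells, whose 8 libraries are separate from the 10 used above. There 875 genes were called (5.84%; 518 higher and 357 lower). Of the 107 genes shifted upward in siCtrl cells, 94 had the same sign in siRAD21 cells (52.3% of all genes), 46 were also called upward (3.45% of all genes) and 1 was called downward, and the median difference was 0.50 against 0.63 in siCtrl cells. Of the 159 genes shifted downward, 129 had the same sign (47.7% of all genes), 46 were called downward (2.38%) and 4 upward, with a median of -0.34 against -0.75. The 2 libraries of siRAD21 OHT cells at 48 h differed by less than the sampling noise (chi-square per gene of 0.981) and may be 1 library under 2 names. The 875 genes and the calls shared with siCtrl cells were counted with them as 2 libraries, so the spread behind these calls may be understated. The other pairs of replicates had values of 1.05 to 4.42, the lowest for the siRAD21 libraries at 24 h. No siRAD21 pair was above 1.91, whereas siCtrl pairs had 1.46 to 4.42. All libraries share the estimate of the spread, so the siRAD21 libraries also enter the p-values of the siCtrl contrast. Fitted on their own groups alone, the siCtrl contrast gave 96 calls and the siRAD21 contrast 1100. With the mean of the 2 siRAD21 OHT libraries at 48 h as 1 sample, fewer genes were called for the contrast, in siRAD21 cells and in siCtrl cells.

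Single genes held their difference to varying degrees. KRT34 had a difference of 1.74 ± 0.16 in siRAD21 cells, SPX of 1.76 ± 0.22, G0S2 of 1.59 ± 0.25 and HK2 of 0.56 ± 0.096, of the same sign as in siCtrl cells. ADGRL3 had -0.87 ± 0.15 and PLXDC2 -1.24 ± 0.18, also of the same sign. MYBBP1A (0.08 ± 0.10) and PHLDA1 (0.06 ± 0.16) had differences near 0 in siRAD21 cells, and CXCL14 (1.78 ± 0.17) and MXD4 (0.55 ± 0.11) the opposite sign.

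The difference of the differences (siCtrl minus siRAD21) was called for 125 genes (0.834%; 27 higher and 98 lower), and for 45 with the 2 siRAD21 OHT libraries at 48 h counted as 1 sample. Among the 266 genes it was called for 3 of the 107 and 17 of the 159. For MYBBP1A it was 0.53 ± 0.14 and was not called (adjusted p = 0.108). The replication genes, of which none was called in siCtrl cells, had a median of 0.51 in siRAD21 cells, with 22 of 42 called higher (3.45% of all genes). For siCtrl minus siRAD21 itself, 10 of the 42 were called lower (0.654% of all genes), with a median of -0.38. Both counts treat the 2 siRAD21 OHT libraries at 48 h as separate.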

How the data were processed

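Total RNA of U2OS-MycER cells was depleted of ribosomal RNA and sequenced on an Illumina HiSeq with reads of 50 bases, from a kit that does not mark strand. The authors trimmed and masked the reads, aligned them to hg19 with TopHat2 2.0.8, removed PCR duplicates, counted reads over exons with featureCounts 1.4.5 and deposited eRPKM, an RPKM over exons, for 23399 genes. Removal of duplicates may cap high values. With an assumed ceiling of 2 read starts per exon base, none of the 266 genes reached more than 50% of it. Of all genes tested 254 did, among them ODC1 (64.1%), CDKN1A (58.0%) and NCL (55.2%). The differences of such genes may be understated. The eRPKM values are relative to the total of each library, so a shift shared by all genes cannot be seen.

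Members, gene lists and named genes were chosen with earlier results of these data known. Groups came from the labels, which give 2 or 3 replicates a group and do not say how the cultures were made, so p-values measure the spread between these libraries. limma 3.58.1 (R 4.3.3) was fitted to log2(eRPKM + 0.5) of genes with a mean of at least 1 eRPKM, over all 18 libraries in 8 groups, with a variance trend, no block and Benjamini-Hochberg adjustment. Calls needed an adjusted p below 0.05 and a log2 value past 0.5, the thresholds of the study's methods. Since low values are whole multiples of 1 read, the depth of each library was recovered from single-exon genes (at least 502 a library). It was 9647501 to 12678599 reads. Reads were then recovered for 20980 genes, for which an exon length made all values whole numbers of reads. These reads make up 99.98% of each depth. A value of 0 allows up to 3 reads.

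Named genes were a fixed panel of 16, the 4 largest differences of each class and direction (for sustained genes the 4 largest effects) among genes that reached 5 eRPKM in 1 siCtrl group, did not overlap where called and were no short RNAs, and up to 2 called members of each list. Gene positions are from GENCODE on GRCh37 (22572 symbols matched, 1514 of them through older symbols), promoters from RefSeq on GRCh38.p14. Same-numbered libraries without and with OHT deviated together at 48 h (correlations of 0.50, 0.36 and 0.27 for replicates 1 to 3). The numbers may pair them there, but libraries of unlike numbers were not compared. At 24 h, where there are 2 pairs, same-numbered libraries did not deviate together (-0.32). On simulated data of 14686 genes made from these libraries, the fit called 59 of 100 genes changed by 1 and 89 of 100 changed by 1.5 on the log2 scale. There were 11 false calls beside these 148 true ones. Alternatives were other pseudocounts, filters, scalings, thresholds and spread estimates, blocks for replicate numbers and library pairs, replicates 1 and 2 alone, voom on recovered reads, removal of the trend on GC content and length, and leaving out each library. Chosen after seeing the data were crossed pairs at 24 h and undoing this assumed ceiling. Python 3.11.15, pandas 2.3.3, numpy 2.4.6, scipy 1.17.1 and matplotlib 3.10.9 were used.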

Additional observations from a re-analysis of the deposited data

Results flagged for a closer look

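For 9 of the named genes the difference between the OHT effects at 48 and 24 h itself differed between siCtrl and siRAD21 cells (limma, Benjamini-Hochberg adjustment). For CXCL14 this difference of differences was -2.98 ± 0.23 (log2, SE; adjusted p = 2.71e-05). CXCL14 measured 6.998 and 7.23 eRPKM in siRAD21 cells at 24 h and 22.7 and 25.0 with OHT, and at 48 h 1.25 and 0.944 without and 16.9 and 17.0 with OHT, so that the OHT effect grew there. For RGS16 it was -2.06 ± 0.21 (adjusted p = 0.000346), with siRAD21 values of 4.28 and 4.26 without and 28.8 and 31.4 with OHT at 24 h and of 4.29 and 4.45 without and 54.0 and 52.2 with OHT at 48 h. For MXD4 it was -1.32 ± 0.15 (adjusted p = 0.000686), with 17.8 and 17.5 without and 6.99 and 7.44 with OHT at 24 h and 30.8 and 33.5 without and 19.4 and 20.1 with OHT at 48 h. These 3 genes were called in all 34 alternatives that kept the thresholds.

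For the other 6 genes the call depended on the setting, and 5 of them missed the threshold with the siRAD21 OHT libraries at 48 h counted as 1 sample. MCM4 had -0.51 ± 0.084 (adjusted p = 0.0120; 0.0376 with those libraries as 1 sample) and CCNE2 -0.94 ± 0.19 (adjusted p = 0.0331; 0.0817). PHLDA1 had -1.22 ± 0.21 (adjusted p = 0.0176; 0.0537), IFI44 -1.03 ± 0.19 (adjusted p = 0.0226; 0.0632), SLC2A12 -0.71 ± 0.14 (adjusted p = 0.0343; 0.0575) and MISP 0.78 ± 0.16 (adjusted p = 0.0314; 0.0730). Of the 18 fits that left out 1 library, 12 kept the call of MCM4, 6 of CCNE2, 15 of PHLDA1, 11 of IFI44, 5 of SLC2A12 and 8 of MISP.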

How the results depend on the processing

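With 2 libraries a group at 24 h, the difference between the times is measured less precisely than either OHT effect, and genes under 0.5 on the log2 scale are not called whatever their p. Of the 266 genes 54 were called in all 27 alternatives that kept the thresholds and removed no siRAD21 library. Counts below are of genes called, beside 266 for the difference, 1316 and 2684 for the OHT effects at 24 and 48 h, 1865 and 1576 for time without and with OHT, 875 for the difference in siRAD21 cells, 125 for siCtrl minus siRAD21, and 147 late, 18 early, 993 sustained and 62 growing genes.

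At a mean of at least 5 eRPKM, 742 and 1653 genes were called for OHT, 1152 and 947 for time, 95 were late and 571 sustained, and the split of the difference (180 genes) was 91 higher and 89 lower. Median centring and quantile normalization gave 72 and 243 for siCtrl minus siRAD21, voom 195, removal of the GC content and length trend 212 and averaged siRAD21 OHT libraries 45. With only the groups compared, 96 genes were called for the difference, 50 were late, 7 early and 28 growing, and with voom 96 were growing. Without a log2 threshold the counts were 625 (332 higher and 293 lower), 3975, 7991, 6774, 6207 and 1979 in the order above, with 41 early, 3226 sustained and 328 growing genes. Past 1 on the log2 scale they were 50, 224, 516, 308, 207, 122 and 36, with 35 late, 4 early, 163 sustained and 1 growing gene.

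A block for the replicate number gave 295 genes for the difference. A block for each pair of same-numbered libraries gave 222, of which 194 were among the 266. The pairing thus moved no count of the difference by over 1.5 times, and the calls it changed for named genes are given beside them. With the numbers crossed at 24 h, 377 genes were called for the difference, 302 for siCtrl minus siRAD21 and 31 were early. The block of pairs gives no change with time within an arm.

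Leaving out 1 library at a time gave 114 to 296 genes for the difference, 61 to 185 late, 10 to 24 early and 29 to 70 growing genes, and 51 to 155 for siCtrl minus siRAD21. The lowest counts for the difference came without replicate 1 of siCtrl OHT (114) and of siCtrl cells (130) at 24 h. The cause of these changes was not tested, apart from the fewer genes or libraries that some alternatives hold. Of 41 named genes called for the difference, 24 kept their call in each of the 10 fits that left out a siCtrl library.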

Other observations

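Several called genes outside the rule for named genes belong to families described in the text, and they were chosen here after their values were seen. SOX5 and SOX2, transcription factors related to SOX6, were growing lower genes with differences of -1.11 ± 0.16 (log2, SE; limma with Benjamini-Hochberg adjustment, adjusted p = 0.00228) and -0.83 ± 0.11 (adjusted p = 0.00153). SOX2 had means of 6.23 and 2.82 eRPKM without and with OHT at 24 h and of 21.4 and 5.55 at 48 h, so it rose with time in both arms. COL9A2, a cartilage collagen, had a difference of -0.94 ± 0.12 (adjusted p = 0.00156). Of genes known from Wnt signalling, the receptor ROR1 had -1.05 ± 0.17 (adjusted p = 0.00519), RNF43, which removes Wnt receptors, -0.97 ± 0.18 (adjusted p = 0.0106), and PRICKLE1, a planar polarity protein, -0.55 ± 0.085 (adjusted p = 0.00320). In siRAD21 cells ROR1 had 0.55, RNF43 -0.65 and PRICKLE1 -0.10.

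ABCA1 and ABCG1, which export cholesterol, were growing lower genes with differences of -0.80 ± 0.18 (adjusted p = 0.0277) and -0.69 ± 0.17 (adjusted p = 0.0332). These calls depended on the setting. Of 28 settings, the main fit and the alternatives that kept the thresholds and removed no siRAD21 library, 16 called ABCA1 and 18 called ABCG1. ABCG1 went from 3.23 and 0.798 eRPKM without and with OHT at 24 h to 10.2 and 1.80 at 48 h. SESN3, a stress-responsive sestrin, had -0.98 ± 0.15 (adjusted p = 0.00320), with 7.68 and 2.84 eRPKM at 24 h and 24.7 and 4.74 at 48 h. On the higher side RRAD, a small GTPase, had 1.82 ± 0.24 (adjusted p = 0.00154) with group means of 0.819 to 4.95 eRPKM, and IL24, a cytokine, 1.28 ± 0.22 (adjusted p = 0.00650). Among the 266 genes 9 were short RNAs by their symbol, against 666 of the 14993 genes tested.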
